A study of Mus musculus with 11 samples.

Results

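The GIMAP genes, read here through 11 of the 45101 probe sets of the table, are a family of GTPases that mouse lymphocytes express from a single gene cluster. The members were all probe sets that the platform annotation gives exactly 1 gene symbol when that symbol is Gimap1, Gimap3, Gimap4, Gimap5, Gimap6, Gimap7, Gimap8 or Gimap9. They cover 8 of 18193 genes tested, with 1 probe set for each of 5 genes and 2 for each of 3 (Gimap4, Gimap6 and Gimap7). Their symbols were the only thing that chose them, so no measured value set the membership.

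GIMAP stands for GTPase of the immunity-associated proteins. The proteins share a GTP-binding domain of the AIG1 type, several are anchored to intracellular membranes, and lymphocytes are the cells best known for expressing them. In rats and mice, loss of Gimap5 leaves few naive T cells, which has made the family known for its part in keeping resting T cells alive. FoxP3 is the forkhead transcription factor of regulatory T cells, and A384T and R397W are amino acid changes in its DNA-binding domain that are known from patients with the autoimmune disease IPEX.

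The arrays came from mouse CD4 T cells that had been made to carry FoxP3 by retrovirus. The 4 groups were A384T FoxP3 (3 arrays), R397W FoxP3 (2 arrays), WT FoxP3 (3 arrays) and mock, the empty MIGR1 vector (3 arrays). All groups shared their origin: naive CD4 T cells of BALB/cA lymph nodes and spleen were stimulated for 24 h with IL-2 at 10 ng/ml, anti-CD3e at 0.5 µg/ml and splenocytes that were free of T cells and irradiated (20 Gy). Virus was then added, and the sort on day 7 took cells with high GFP. The FoxP3 in these cells was therefore driven by a retroviral vector in activated T cells, while the labels give neither the age of the mice nor any pooling of animals. The labels are silent on whether arrays of 1 group hold RNA of separate cultures or mice; p-values therefore cover the spread among these arrays alone, which may be technical.

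Each value is on the log2 scale and is measured from the mock median of its own probe set. Levels are lost by this centring, so neither the abundance of a GIMAP transcript nor the presence of T cell markers could be checked, and 1 probe set was not set against another in height. In bulk samples, fewer cells of a type and less RNA per cell cannot be told apart. The Foxp3 probe set (1420765_a_at) passed in none of the 6 comparisons (limma): its WT over mock difference was 0.04 ± 0.15 (SE, adjusted p 0.972), and A384T over mock gave 0.27 ± 0.15 (adjusted p 0.546). Its R397W values, -0.19 and -0.39, overlapped mock and lay below all A384T and WT arrays, with -0.30 ± 0.17 for R397W over WT (adjusted p 0.604) and -0.53 ± 0.17 for R397W over A384T (adjusted p 0.194). No source used here says whether that probe set reads the transduced sequence, so it checks nothing about the labels. Arrays with the same number in their titles deviated together from their group means across all probe sets, and this touches several GIMAP values given next.

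The promoters of 4 members are printed because the text turns on them: Gimap9 and Gimap3 had the largest positive differences in WT over mock, Gimap5 the largest negative one in A384T over mock, and Gimap7 the largest share of its spread between array numbers. Each runs from 250 bases before to 50 bases after the RefSeq start, 5′ to 3′ on the gene's strand, in build GRCm38.p6. They lie at chr6:48675885-48676184 (plus strand, Gimap9), chr6:48770802-48771101 (minus strand, Gimap3), chr6:48745947-48746246 (plus strand, Gimap5) and chr6:48718371-48718670 (plus strand, Gimap7). Capitals mark a match, on either strand, to the forkhead letters TGTTTAC or the RUNX letters TGTGGT.
Gimap9: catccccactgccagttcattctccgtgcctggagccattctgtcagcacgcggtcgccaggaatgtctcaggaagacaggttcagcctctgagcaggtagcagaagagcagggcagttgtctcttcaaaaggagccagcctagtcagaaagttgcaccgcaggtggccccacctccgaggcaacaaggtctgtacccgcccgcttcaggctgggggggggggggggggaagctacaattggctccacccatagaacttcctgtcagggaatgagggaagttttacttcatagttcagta
Gimap3: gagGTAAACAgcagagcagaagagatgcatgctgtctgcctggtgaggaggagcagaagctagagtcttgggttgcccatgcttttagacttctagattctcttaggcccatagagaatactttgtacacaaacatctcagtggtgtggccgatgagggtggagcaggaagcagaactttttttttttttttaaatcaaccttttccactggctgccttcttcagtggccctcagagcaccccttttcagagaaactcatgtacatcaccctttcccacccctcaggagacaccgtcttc
Gimap5: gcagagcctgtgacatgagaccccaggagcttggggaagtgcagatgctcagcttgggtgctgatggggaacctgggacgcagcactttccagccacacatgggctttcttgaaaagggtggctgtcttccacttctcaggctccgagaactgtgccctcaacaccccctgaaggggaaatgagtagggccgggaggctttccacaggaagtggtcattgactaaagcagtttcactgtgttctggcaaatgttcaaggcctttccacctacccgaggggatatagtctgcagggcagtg
Gimap7: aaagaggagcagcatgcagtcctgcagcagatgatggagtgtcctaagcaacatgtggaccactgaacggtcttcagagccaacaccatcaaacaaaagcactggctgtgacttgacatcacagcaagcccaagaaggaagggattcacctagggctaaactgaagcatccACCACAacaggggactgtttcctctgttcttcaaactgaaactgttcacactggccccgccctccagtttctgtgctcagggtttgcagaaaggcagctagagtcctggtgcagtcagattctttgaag

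All 8 genes matched the promoter table, with 9 promoters in all because Gimap8 has 2. The forkhead letters stood in 1 of the 9, that of Gimap3, as GTAAACA starting 247 bases before the start; 3.65% of all 32851 mouse promoters of the same length hold them. RUNX letters stood in 3 (Gimap1, Gimap4 and Gimap7), against 16.8% of all promoters. The ETS letters CCGGAA and the AP-1 letters TGACTCA, held by 14.9% and 5.2% of all promoters, were in 0 of the 9. The NFAT core GGAAAA was in 3 (Gimap1, Gimap3 and Gimap6), against 23.4%, and the KLF core CACCC in 6 promoters of 5 genes (Gimap3, Gimap4, Gimap5, Gimap8 and Gimap9), against 57.5%. These are matches of letters only.

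Gimap9 had the largest difference of any GIMAP probe set between WT FoxP3 and mock. Its values were 0.58, 0.84 and 1.15 on the WT arrays, against -0.07, 0.00 and 0.53 on the mock arrays. All 3 WT arrays lay above all 3 mock arrays, the lowest WT value being close to the highest mock value. The difference was 0.70 ± 0.23 (SE, limma; 95% interval 0.19 to 1.22), a 1.63-fold higher signal, with an adjusted p of 0.188. When the array number was a block in the fit, the same difference had an SE of 0.15 and passed, with an adjusted p of 0.0126.

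That call rested in part on single arrays. It was lost when mock array 2, WT array 1 or WT array 3 was left out of the blocked fit, where the highest adjusted p was 0.0718, and it held in the other 8 of 11 such fits. Within a number, the WT value minus the mock value was 0.65, 0.84 and 0.62 for numbers 1, 2 and 3. The difference was thus positive on each of the 3 numbered pairs.

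On the A384T arrays Gimap9 had the values 0.42, 1.22 and 0.91. One of these lay below the highest mock array, so A384T and mock overlapped. The A384T over mock difference was 0.70 ± 0.23 (adjusted p 0.194) and A384T over WT was -0.005 ± 0.23, with a 95% interval of -0.52 to 0.51. With the block, A384T over mock passed too (SE 0.15, adjusted p 0.0136), a call lost without mock array 2.

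The R397W arrays gave 0.04 and 0.32 for Gimap9, inside the range of the mock arrays and below all WT arrays. R397W over mock was 0.03 ± 0.26 (95% interval -0.55 to 0.61, adjusted p 1). R397W over WT was -0.67 ± 0.26 (95% interval -1.25 to -0.10, adjusted p 0.348), and R397W over A384T was -0.67 ± 0.26 (adjusted p 0.346). In the last 2 comparisons the groups did not overlap, yet neither passed the test.

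Gimap3 encodes a close relative of the Gimap5 protein. WT arrays 1, 2 and 3 had 0.91, 0.64 and 0.45, against 0.52, 0.00 and -0.06 on mock arrays 1, 2 and 3. The lowest WT array lay under the highest mock array, so the groups overlapped. The WT over mock difference was 0.51 ± 0.21 (95% interval 0.04 to 0.99), a 1.43-fold higher signal, with an adjusted p of 0.349. In the blocked fit, Gimap3 rose in WT over mock (0.51 ± 0.095, adjusted p 0.0063). That call held in all 11 blocked fits that left out 1 array, where the adjusted p was between 0.00655 and 0.0399. Within a number, WT minus mock was 0.39, 0.64 and 0.52 for numbers 1, 2 and 3.

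In the mutants, Gimap3 had 0.91, 0.45 and 0.41 on A384T arrays 1, 2 and 3 and 0.66 and 0.11 on R397W arrays 1 and 2. The array numbered 1 was the highest of each group. A384T over mock was 0.44 ± 0.21 (adjusted p 0.457), A384T over WT was -0.08 with a 95% interval of -0.55 to 0.40, and R397W over mock was 0.23 ± 0.24 (adjusted p 1). Both mutant groups overlapped mock. With the block, A384T over mock passed (0.44 ± 0.095, adjusted p 0.016), a call that held in 6 of 11 fits without 1 array. R397W over mock did not pass.

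Gimap5, the member whose loss depletes naive T cells in rats and mice, had its lowest values on the A384T arrays. They were -0.36, -0.61 and -0.33 for A384T, against 0.11, -0.11 and -0.04 for WT and 0.23, -0.08 and 0.00 for mock. The R397W arrays had 0.28 and -0.08. All 3 A384T arrays lay below every one of the other 8 arrays, and those of R397W, WT and mock overlapped each other.

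The Gimap5 difference was -0.48 ± 0.13 in A384T over mock (95% interval -0.78 to -0.18), a 1.40-fold lower signal. In the fit with groups only it did not pass the test over all probe sets (unadjusted p 0.00475, adjusted p 0.109, limma). With the block it passed (adjusted p 0.00994), a call lost without mock array 1 or A384T array 1. The pairing of A384T and mock by number was weak at number 2 (r 0.0858). Within a number, A384T minus mock was -0.59, -0.54 and -0.33 for numbers 1, 2 and 3. A384T over WT was -0.42 ± 0.13 (95% interval -0.72 to -0.12, adjusted p 0.760; the blocked fit gave an adjusted p of 0.105). For A384T minus WT these values were -0.47, -0.51 and -0.28 for numbers 1, 2 and 3. R397W over A384T was 0.54 ± 0.15 (adjusted p 0.137). With the block R397W over A384T passed (adjusted p 0.0148), a call lost without A384T array 1, R397W array 1 or R397W array 2. For WT over mock the value was -0.06 ± 0.13, with a 95% interval of -0.36 to 0.23. This probe set and that of Gimap3 read close paralogs, and how far each also takes up the other's transcript is uncertain.

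Gimap1 is needed for the survival of mature T and B cells in the mouse, and no comparison of it passed. Its values were -0.52, -0.13 and 0.00 on the A384T arrays, -0.06 and 0.12 on the R397W arrays, -0.31, -0.12 and -0.02 on the WT arrays and -0.11, 0.00 and 0.13 on the mock arrays. Every group overlapped mock. The largest difference from mock was that of A384T, -0.22 ± 0.15 (adjusted p 0.646).

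Gimap4, linked to the death of activated T cells, was read by 2 probe sets whose values moved together over the 11 arrays (Pearson r 0.83). At 1424374_at the A384T arrays had 0.06, 0.33 and 0.18, the R397W arrays 0.12 and 0.18, the WT arrays 0.15, 0.13 and 0.35, and the mock arrays 0.00, -0.17 and 0.06. All 8 FoxP3 arrays lay above the 3 mock arrays, by a margin that was smallest for A384T array 1. WT over mock was 0.25 ± 0.11 (adjusted p 0.398), A384T over mock 0.23 ± 0.11 (adjusted p 0.442) and R397W over mock 0.19 ± 0.12 (adjusted p 1), and these 3 comparisons share the mock arrays. The probe set 1424375_s_at, of a type that can match several transcripts, had smaller differences from mock, between 0.10 and 0.15.

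Gimap6 binds the ATG8 protein Gabarapl2, which ties it to autophagy. Its 2 probe sets did not move together (Pearson r -0.50 over the 11 arrays). At 1456762_at the R397W arrays had -1.09 and -0.82, against -0.69, 0.00 and 0.31 on the mock arrays, with no overlap. R397W over mock was -0.83 ± 0.41 (95% interval -1.74 to 0.08, adjusted p 1). The WT arrays had -0.94, -0.17 and 0.22 and the A384T arrays -0.90, -0.33 and 0.29, so both overlapped R397W and mock. R397W has no array numbered 3, the number at which this probe set was highest in each of the other groups. With the block, R397W over mock was -0.57 ± 0.13 at this probe set (95% interval -0.86 to -0.28, limma), which did not pass. Within numbers 1 and 2, R397W minus mock was -0.41 and -0.82. At 1427891_at the R397W over mock difference was 0.07 ± 0.13, and the largest difference was that of A384T over WT, 0.22 ± 0.12, which did not pass.

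Gimap7, a GTPase whose human form is active as a dimer, and Gimap8, the member with several GTPase domains in a row, passed in no comparison. At 1425084_at, Gimap7 over mock was -0.005 ± 0.25 for A384T, 0.16 ± 0.28 for R397W and 0.16 ± 0.25 for WT. Its 2 probe sets moved together (Pearson r 0.78). Gimap8 over mock was 0.03 ± 0.19 for A384T, 0.07 ± 0.21 for R397W and 0.14 ± 0.19 for WT. In the fit with groups only the intervals are wide: for Gimap7 at 1425084_at, WT over mock ran from -0.40 to 0.71.

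**Figure D1:**
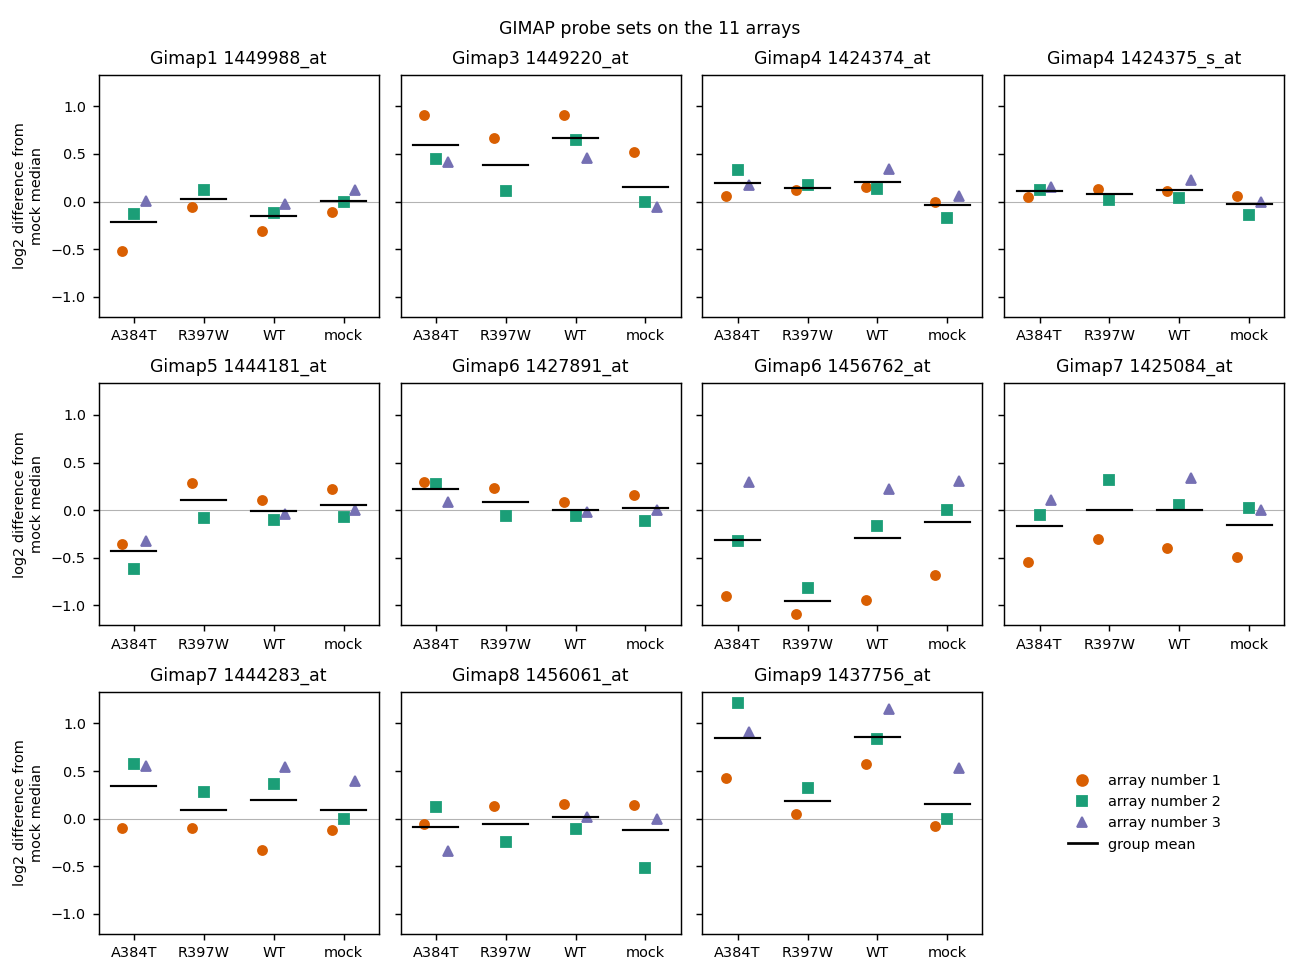
Values of the 11 GIMAP probe sets on the 11 arrays, 1 panel per probe set. The vertical axis is the log2 difference from the mock median, points are arrays shaped by their number, and bars are group means. Gimap5 is lower on all 3 A384T arrays than on the other 8, and Gimap9 has higher group means for A384T and WT than for R397W and mock. Arrays numbered 1 lie below all others in Gimap7. They are the lowest of their own group in Gimap6 at 1456762_at and the highest of their own group in Gimap3.

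Counted over the family, 0 of 11 probe sets passed an adjusted p of 0.05 in each of the 6 comparisons (limma). In WT over mock 3.21% of all 34945 probe sets passed. In A384T over mock 2.7% passed and in A384T over WT 0.114%. The share was 2.15% for R397W over WT and 1.83% for R397W over A384T, while R397W over mock had 0% (0 of 34945, 612 at an unadjusted p under 0.05). At an unadjusted p under 0.05, the family had 3 of 11 in WT over mock (12.3% of all probe sets), 2 in A384T over mock (12.5%), 0 in R397W over mock (1.75%), 1 in A384T over WT (4.27%), 2 in R397W over A384T (11%) and 1 in R397W over WT (10.7%). With 11 members, a single probe set moves such a share by much, and nothing is read from it.

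In the blocked fit, 2 of 11 passed in WT over mock, Gimap3 and Gimap9, both higher; 8.66% of all probe sets passed there and 4.64% passed as higher. In A384T over mock 3 of 11 passed with the block, Gimap3 and Gimap9 higher and Gimap5 lower, where 8.36% of all probe sets passed. In R397W over A384T 1 of 11 passed with the block, Gimap5, against 6.51%. A384T over WT still had 0 of 11 with the block (limma), against 0.589% of all probe sets, and 2 at an unadjusted p under 0.05, against 8.37%. Groups did not overlap at 2 of 11 members in WT over mock (16.2% of all probe sets), 2 in A384T over mock (15.3%), 2 in R397W over mock (11.8%), 1 in A384T over WT (7.72%), 2 in R397W over A384T (23.6%) and 1 in R397W over WT (24.3%). The family's median difference was 0.14 in WT over mock, against -0.01 over all probe sets, and 0.13 in A384T over mock, against -0.005. It was 0.07 in R397W over mock (0.006 over all), -0.02 in A384T over WT (0.003), -0.04 in R397W over A384T (0.008) and -0.06 in R397W over WT (0.01).

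**Figure D2:**
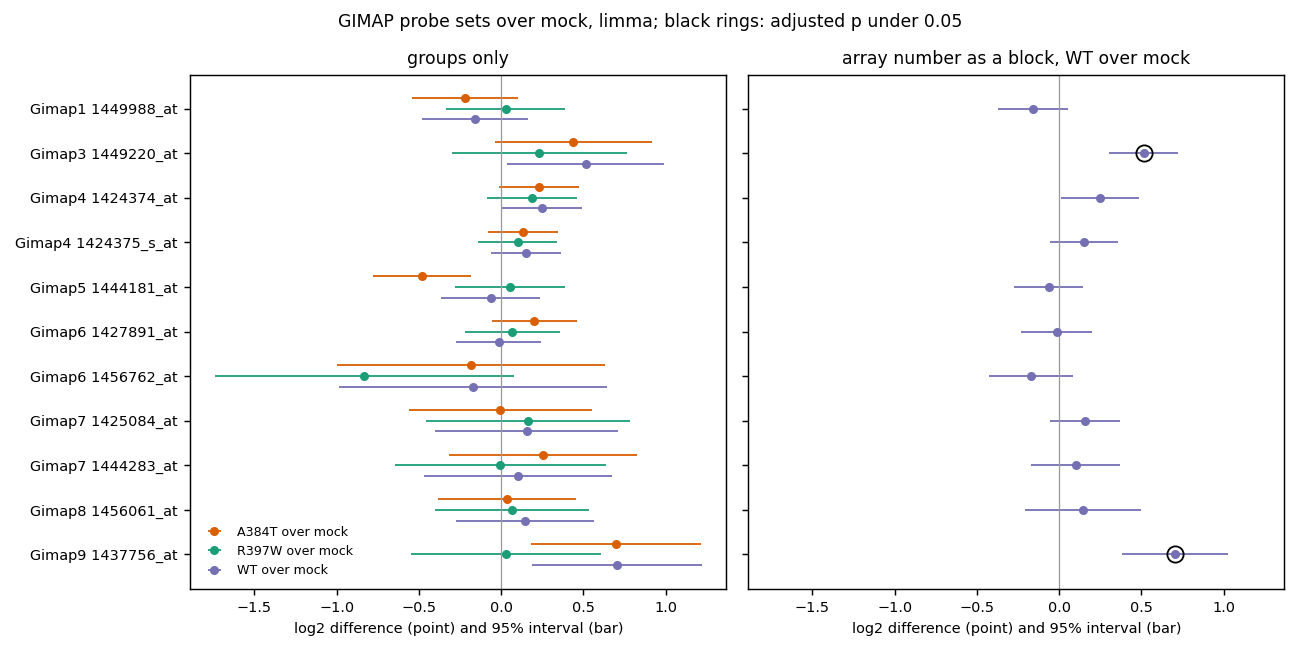
Log2 differences from mock with their 95% intervals for the 11 GIMAP probe sets, for A384T, R397W and WT in the fit with groups only (left) and for WT over mock in the fit with number as a block (right). Black rings mark an adjusted p under 0.05: none on the left, and Gimap3 and Gimap9 on the right. The blocked A384T and R397W differences are not drawn.

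The arrays' number moved with several members. The following test, in a fit with group and number together, was chosen after these values were seen, and the labels do not say what a number stands for. At an adjusted p under 0.05, 5 of 11 GIMAP probe sets differed between numbers, against 16.9% of all probe sets. Of these, 4 were lower on number 1, and their number 3 minus number 1 differences were 1.07 for Gimap6 at 1456762_at (adjusted p 0.000337), 0.65 and 0.66 for the 2 Gimap7 probe sets (adjusted p 0.00144 and 0.0064) and 0.54 for Gimap9 (adjusted p 0.0464). Gimap3 ran the other way, with -0.53 (adjusted p 0.00347).

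Gimap7 showed this most plainly. At 1425084_at the array numbered 1 had -0.54 for A384T, -0.30 for R397W, -0.40 for WT and -0.50 for mock. All other arrays of this probe set lay between -0.05 and 0.34, so the number separated them and the groups did not. Number, given group, took up 89.0% of this probe set's sum of squares. The share of number was 65.6% for Gimap6 at 1456762_at, 58.8% for Gimap1 and 54.1% for Gimap3. For Gimap5 it was group, given number, that took up the most, 72.2%, and likewise for Gimap9 (55.7%) and Gimap4 at 1424374_at (56.9%). Group was also the largest share for Gimap4 at 1424375_s_at (45.2%) and Gimap6 at 1427891_at (43.2%, with 39.1% for number). The 2 shares need not add up with the residual to the whole, because R397W has no array numbered 3.

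The array numbered 1 was below the mean of the others of its group in 4 of 4 groups for Gimap1, Gimap6 at 1456762_at, both Gimap7 probe sets and Gimap9. It was above that mean in 4 of 4 groups for Gimap3, Gimap5, Gimap6 at 1427891_at and Gimap8. Among the lists of other genes, 31 of 69 probe sets of T cell quiescence and circulation genes differed between numbers, against 16.9% of all probe sets. Of the 31, 27 were higher on number 3 than on number 1. The counts that differed were 24 of 58 for lymphoid transcription factors and 22 of 60 for calcium and GSK3 genes. They were 10 of 43 for BCL-2 family genes and 14 of 64 for autophagy genes, both nearer to that share. Of the T cell markers 6 of 19 differed, of the B cell markers 1 of 28, and of the macrophage and dendritic cell markers (0 of 21) and the CD8 and NK cell markers (0 of 17) none did. Their part in the GIMAP differences between numbers was not tested.

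**Figure D3:**
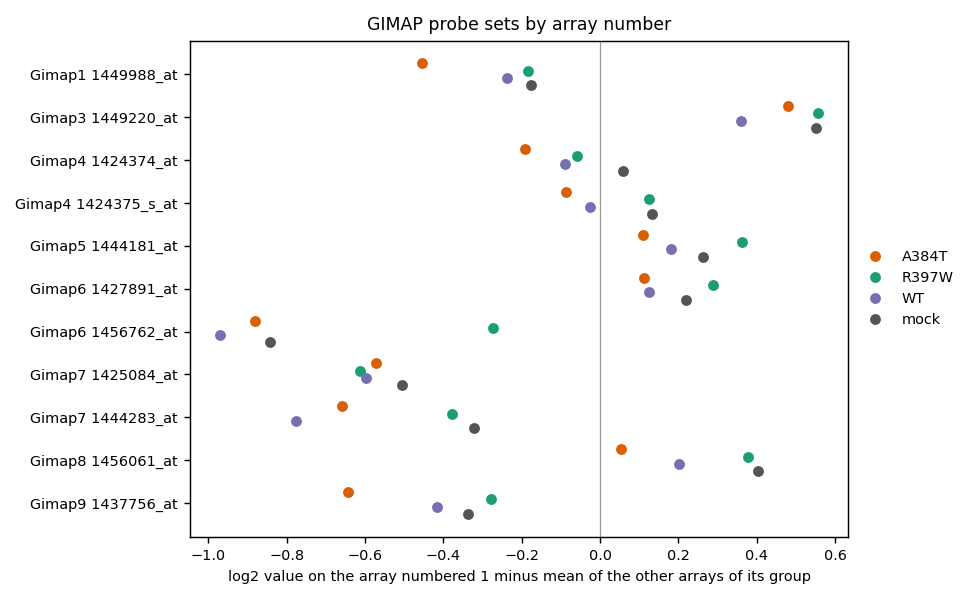
For each GIMAP probe set, the log2 value on the array numbered 1 minus the mean of the other arrays of its group, 1 point per group. Gimap1, Gimap6 at 1456762_at, both Gimap7 probe sets and Gimap9 lie left of 0 in all 4 groups, and Gimap3, Gimap5, Gimap6 at 1427891_at and Gimap8 lie right of 0 in all 4.

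The members did not move as a unit over the 11 arrays. Among 52 pairs of probe sets of different GIMAP genes the median Pearson r was 0.10, with 31 pairs above 0, 14 over 0.5 and 7 under -0.5. The lowest was Gimap1 with Gimap3 (-0.86), and the highest were Gimap4 at 1424374_at with Gimap9 (0.82) and Gimap7 at 1444283_at with Gimap9 (0.75). The points of these correlations share groups and array numbers, both of which move the members. Of 18185 other genes, the 5 whose mean profile over the 11 arrays was most like the family mean were Tmem33 (Pearson r 0.96), Cul4b (0.95), Rdx (0.94), Paip1 (0.93) and Ino80d (0.93), and 15 genes had an r over 0.9. With 11 arrays in 4 groups and so many genes, such values are a description.

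The cluster lies on chromosome 6, where RefSeq places the members in the order Gimap8, Gimap9, Gimap4, Gimap6, Gimap7, Gimap1, Gimap5 and Gimap3. No other protein-coding gene stands between the first and the last of them in that table. The genes next to Gimap3, Tmem176b and Tmem176a, encode transmembrane proteins and had far larger differences than any member. At 1423909_at, Tmem176a had 2.08, 1.89 and 1.70 on the A384T arrays, 0.43 and 0.49 on the R397W arrays, 2.14, 2.28 and 2.14 on the WT arrays, and 0.08, 0.00 and -0.04 on the mock arrays. A384T, R397W and WT all lay above mock, with R397W nearest to it.

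Tmem176a rose in WT over mock by 2.17 ± 0.11 (adjusted p 9.64e-06) and in A384T over mock by 1.87 ± 0.11 (adjusted p 2.82e-05) on the log2 scale. R397W over mock was 0.45 ± 0.12 (adjusted p 1), and R397W over WT was -1.72 ± 0.12 (adjusted p 9.55e-05). Tmem176b rose in WT over mock by 1.80 ± 0.18 (adjusted p 0.000412) and in A384T over mock by 1.58 ± 0.18 (adjusted p 0.000994). On the far side of the cluster, past 4 genes with a probe set, Lrrc61, which encodes a leucine-rich repeat protein, rose by 1.58 ± 0.21 in WT over mock (adjusted p 0.00222) and by 1.46 ± 0.21 in A384T over mock (adjusted p 0.00408). These 6 calls at 1423909_at, 1418004_a_at and 1423843_at held in all 11 fits that left out 1 array. In all, 5 of 21 probe sets of the 10 neighbouring genes passed in WT over mock, against 3.21% of all probe sets. All 5 were of Tmem176a, Tmem176b and Lrrc61. The GIMAP probe sets between them had differences from -0.17 to 0.70 in that comparison.

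**Figure D4:**
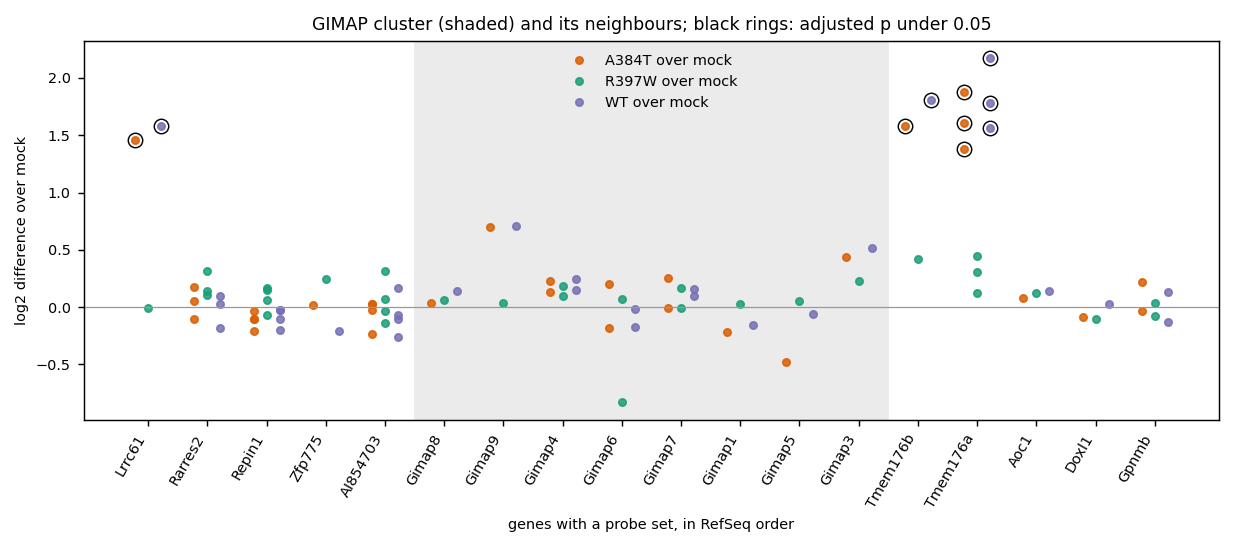
Log2 differences from mock for A384T, R397W and WT along the GIMAP cluster (shaded) and the 5 nearest genes with a probe set on each side, in RefSeq order. Black rings mark an adjusted p under 0.05; they fall on Lrrc61, Tmem176b and Tmem176a, outside the cluster, and on no GIMAP gene.

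Gimap3, Gimap4 and Gimap5 have been tied to BCL-2 family proteins, which set the threshold for cell death. Of 43 probe sets of 15 such genes, 6 were higher and 0 lower in WT over mock (limma). The 6 belonged to 2 genes, Bcl2l1 and Mcl1. In A384T over mock 4 were higher, of the 2 genes Bcl2l1 and Bcl2l11, and 1 was lower. R397W over mock had 0. Of all probe sets, 1.81% were called higher and 1.4% lower in WT over mock, and 1.55% and 1.15% in A384T over mock. In the blocked fit, WT over mock had 16 higher, of 5 genes, and 2 lower, where 4.64% of all probe sets passed as higher and 4.01% as lower. A384T over mock had 13 higher, of 4 genes, and 2 lower with the block, where 4.52% and 3.84% passed. Mcl1, which holds cell death back, rose by 0.97 ± 0.16 in WT over mock (adjusted p 0.00745), and Bbc3, which promotes it, fell by 1.32 on the log2 scale in A384T over mock (SE 0.22, adjusted p 0.00929). On the WT arrays Bbc3 had -0.71, -1.38 and -0.69, below all mock arrays, without a call in the fit with groups only. Bcl2l1, which encodes BCL-XL, rose by 2.26 ± 0.41 in WT over mock (adjusted p 0.0149, limma) and by 2.48 ± 0.41 in A384T over mock (adjusted p 0.0102). Its WT over mock call was lost in 4 of 11 fits that left out 1 array. Bcl2l11, which like Bbc3 promotes cell death, rose as well, by 0.59 ± 0.13 in A384T over mock (adjusted p 0.0374). That call of Bcl2l11 was lost in 7 of 11 fits that left out 1 array. R397W over WT had 0 higher and 2 lower, R397W over A384T 1 higher and 2 lower, and A384T over WT had 0. The median of the list was 0.25 in WT over mock and 0.17 in A384T over mock.

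Autophagy genes, the setting of Gimap6, had 64 probe sets of 26 genes. Of these, 3 were higher and 0 lower in WT over mock (6 higher and 3 lower with the block). In A384T over mock 3 were higher and 0 lower (3 higher and 3 lower with the block), and 0 passed in R397W over mock. These counts stand beside the shares of all probe sets just given. Without the block, the probe sets called in each of these comparisons belonged to 2 genes. Gabarapl1, of the ATG8 genes, rose by 0.86 ± 0.16 in WT over mock (adjusted p 0.0185, limma) and by 0.80 ± 0.16 in A384T over mock (adjusted p 0.0285). Those calls were lost in 3 and 5 of 11 fits that left out 1 array. Lamp2, a lysosomal membrane protein, rose by 0.91 ± 0.16 in WT over mock (adjusted p 0.0112), and Lamp1, another, by 0.80 ± 0.11 in A384T over mock (adjusted p 0.00414). The median of this list was -0.0002 in WT over mock and 0.008 in A384T over mock, close to that of all probe sets.

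Genes of T cell quiescence and circulation, which mark resting T cells, had 0 higher and 5 lower of 69 probe sets in WT over mock. Of all probe sets, 1.81% passed there as higher and 1.4% as lower. All 5 lower probe sets of the list belonged to Igfbp4, which binds insulin-like growth factors and is a marker of naive T cells. At 1421991_a_at Igfbp4 had -1.30 ± 0.23 (adjusted p 0.011). That call was lost without mock array 2, mock array 3 or WT array 2 (highest adjusted p 0.0534). In the blocked fit, WT over mock had 4 higher and 14 lower (4.64% and 4.01% of all probe sets). Blocked A384T over mock had 5 higher and 14 lower (4.52% and 3.84%), and blocked A384T over WT 1 higher and 0 lower. Without the block, 0 were higher and 2 lower in A384T over mock, and R397W over mock had 0. The list's median was -0.18 in WT over mock and -0.26 in A384T over mock, against 0.14 and 0.13 for the GIMAP probe sets.

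Lymphoid transcription factors had 4 higher and 2 lower of 58 probe sets in WT over mock (8 higher and 5 lower with the block). In A384T over mock they had 4 higher and 3 lower (12 higher and 8 lower with the block). Of all probe sets, 1.81% passed as higher and 1.4% as lower in WT over mock, and 1.55% and 1.15% in A384T over mock. With the block these shares were 4.64% and 4.01% in WT over mock, and 4.52% and 3.84% in A384T over mock. Ikzf2, which encodes Helios, rose by 1.95 ± 0.20 in WT over mock (adjusted p 0.000484), while Gfi1, a repressor, fell by 1.57 on the log2 scale (SE 0.20, adjusted p 0.00165). Calcium and GSK3 genes had 1 higher and 0 lower of 60 in WT over mock (3 higher and 3 lower with the block), near those shares. In A384T over mock they had 1 higher and 2 lower (4 higher and 7 lower with the block). Both lists had 0 in R397W over mock and, without the block, in A384T over WT. In the blocked fit of A384T over WT, 0.286% of all probe sets passed as higher and 0.303% as lower. There 1 probe set of the factors was lower (Runx3, -0.63, adjusted p 0.028, limma). Of the calcium and GSK3 list 3 probe sets were lower, all of 1 gene, Atp2b1 (-0.82, adjusted p 0.00326 at 1 of them).

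Markers of other cells were read beside these counts and the same shares of all probe sets. In WT over mock, 1 of 19 T cell marker probe sets was higher (Cd2) and 2 lower (Cd5, -0.47, and Zap70, -0.43). Of the B cell markers 0 of 28 passed. Lower were 1 of 21 macrophage and dendritic cell markers (Fcgr3, -1.75 ± 0.21, adjusted p 0.00116) and 1 of 17 CD8 and NK cell markers (Klrd1, -3.28 ± 0.29, adjusted p 0.000192). In A384T over mock, 1 T cell marker probe set was higher (Cd2) and 4 lower, of Trat1 (-2.43 ± 0.41, adjusted p 0.0103), Cd28 and Cd5. In that comparison 2 B cell marker probe sets were higher (both Ighm). Lower were 2 macrophage and dendritic cell markers (Fcgr3 and Adgre1) and 1 CD8 and NK cell marker (Klrd1). In the blocked fit of WT over mock, 3 T cell markers were higher and 6 lower and 1 B cell marker was higher (Ighm, adjusted p 0.0135), while the other 2 marker lists kept their counts. Blocked A384T over mock had 2 T cell markers higher and 5 lower, and the other marker lists kept their counts. The blocked A384T over WT had 1 macrophage and dendritic cell marker lower (Fcgr3, -0.78, adjusted p 0.037). The call of Ighm at 1427329_a_at in A384T over mock was lost in 4 of 11 fits without 1 array (A384T array 1 or 2, mock array 1 or 2), and that of Adgre1 without A384T array 2. The calls of Cd5 and Zap70 in WT over mock were each lost in 9 of 11 such fits, and that of Cd5 in A384T over mock in all 11. The median over a marker list lay between -0.07 and 0.06 in both comparisons. Whether any defining marker was absent cannot be read from centred values, and the part of these cells in the GIMAP values was not tested.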

How the data were processed

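RNA of 11 samples was measured on 1 GeneChip array each. The deposited values are log2 signals, made by the authors with RMA according to the submitters' processing notes (no version named). At all 45101 probe sets the mock median was 0, so the table had been centred on mock; neither the centring nor the logarithm's base is given in the sources used here, and base 2, which RMA gives, was assumed. Array medians ran from -0.0163 to 0.00222. No pair of arrays was identical. The number of arrays limits the precision: the median SE of a difference was 0.142 for 3 arrays against 3 and 0.159 with R397W.

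Of the probe sets, 34958 had 1 symbol in the platform annotation, 932 several and 9211 none. After 13 control probe sets were left out, 34945 were fitted with limma 3.58.1 (R 4.3.3), with 1 mean per group and all 11 arrays (7 residual degrees of freedom). Adjusted p-values are Benjamini-Hochberg over all 34945, and a probe set was called under 0.05. Entrez identifiers of 34741 probe sets matched the RefSeq gene table, and 0 symbols changed. Promoters are RefSeq's (GRCm38.p6), and the table was otherwise used for names and gene order. The fit was tested on simulated data. Summaries used pandas 2.3.3 under Python 3.11.15, and plots matplotlib 3.10.9.

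Groups share array numbers in their titles. Same-numbered arrays' deviations from group means correlated in WT and mock (r 0.672, 0.504 and 0.559 for numbers 1, 2 and 3) and in A384T and WT (0.719, 0.153 and 0.474). All these r were over 0.1, the limit used, so the numbers were taken to pair the arrays there, by the data and not by the labels. At number 2 of A384T and WT this was weak: A384T array 2 correlated more with WT array 3 (0.284). In these comparisons the report gives blocked values of members and counts of the lists where they differ. In A384T and mock 1 pair had 0.0858, under the limit, and R397W has 2 pairs only. Blocked values are given there for members that passed, with blocked list counts for A384T over mock. For R397W they are also given for Gimap6 and Gimap7, which did not pass. Alternatives were the block, a trended robust prior, a filter on the spread, 1 value per gene, median scaling, the 2 groups alone and arrays left out.

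The members and lists were chosen with earlier results of these data known. All members were described; Foxp3, the 5 neighbouring genes on each side, the 5 genes most like the family mean and, from each list, up to 4 called genes per comparison could be named as well, and the text names part of these.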

Additional observations from a re-analysis of the deposited data

How the results depend on the processing

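No GIMAP probe set was called in any of the 6 comparisons under the other normalizations, filters, priors and array subsets tried without the array number as a block, and 0 of 66 member differences reversed as a called value. Of 1218 recomputed values, 1122 kept their direction and side of the threshold, 90 changed sign without a call and 6 passed the threshold, all with the block. With the array number as a replicate block, the called GIMAP probe sets numbered 2 for WT over mock, 3 for A384T over mock (Gimap3 and Gimap9 higher, adjusted p 0.016 and 0.0136, and Gimap5 lower, adjusted p 0.00994; 8.36% of all probe sets) and 1 in R397W over A384T (Gimap5, 0.54 ± 0.11, adjusted p 0.0148; 6.51%), and 0 in the other 3. Blocked A384T over mock had, higher and lower, 5 and 14 of the quiescence list, 13 and 2 of the BCL-2 family, 12 and 8 of the lymphoid factors, 3 and 3 of autophagy, 4 and 7 of calcium and GSK3 and 2 and 5 of the T cell markers (4.52% and 3.84% of all probe sets). In fits with the block and without 1 array, chosen after seeing the data, the counts ran from 1 to 2 for WT over mock, 1 to 3 for A384T over mock, 0 to 1 in R397W over A384T and 0 to 1 in R397W over WT, and were 0 in the other 2. Without 1 array, the calls of Gimap3, Gimap9 and Gimap5 in blocked A384T over mock held in 6, 10 and 9 of 11 fits, and that of Gimap5 in R397W over A384T in 8. Among all probe sets, WT over mock had 1121 calls, 3026 with the block, 497 with a trended robust prior, 648 to 1137 without 1 array and 495 without the arrays numbered 1. A384T over mock had 942, and 2923, 369, 587 to 849 and 354 under the same settings. A384T over WT had 40, and 206, 27, 17 to 32 and 2. R397W over WT had 752, and 2238, 303, 235 to 777 and 186. R397W over A384T had 641, and 2275, 241, 204 to 612 and 117. Fitting the 2 groups alone gave 833, 531, 12, 326 and 161 in that order, and R397W over mock had 0 under each of these (limma; 612 at an unadjusted p under 0.05). Without the arrays numbered 1, the calls of Mcl1, Lamp2 and Cd2 in WT over mock missed the threshold (adjusted p 0.0912, 0.0945 and 0.0982, limma), as did those of Bcl2l1 and Gabarapl1 (0.133 and 0.123). In A384T over mock those of Bcl2l1, Bbc3, Gabarapl1, Lamp1, Ighm at 1427329_a_at and Adgre1 missed it too (0.169, 0.101, 0.243, 0.057, 0.197 and 0.130). The causes of these shifts were not tested. Across all 15 pairs of same-numbered arrays, 14 correlated over 0.1, and 27 of 30 comparisons of an array with another group were highest at its own number. The 30 comparisons are not independent. Each pair is read from both sides, and deviations from a group mean are tied to each other, so that the R397W arrays mirror each other.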
